A study of Mus musculus with 4 samples.

Results

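The simple epithelial keratins Krt7, Krt8, Krt18 and Krt19 were picked by gene symbol from the gene table of a single-cell RNA sequencing count matrix, where they are 4 of 32285 genes, and 45 other genes of the matrix carry a keratin symbol. The cells were mouse embryonic stem cells (mESC) of E14tg2a.4, a male line grown with leukaemia inhibitory factor (LIF), a cytokine that holds mESC in self-renewal. The labels name 2 WT samples and 2 samples of Srrm2 hKO, a single gene-trap line of E14tg2a.4 in which 1 allele of the splicing factor gene Srrm2 is truncated, and the study's methods give the parental and the gene-trap line different passage ranges. A last growth period of 24 h or 72 h without serum is stated for the samples in general, and the methods of the study give another time for these libraries. The matrix numbers its libraries from 1 to 4, and nothing in the sources used here ties a number to a WT or Srrm2 hKO sample. Values are therefore given for each numbered library, WT and Srrm2 hKO are not compared, and intervals (95 percent, exact) cover counting error only.

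Keratins build the intermediate filaments of epithelial cells as obligate pairs of a type I and a type II chain, so neither chain forms filaments alone. Krt8 and Krt7 encode type II chains, and Krt18 and Krt19 encode type I chains. Krt8 with Krt18 is the first keratin pair of the mouse embryo and is known from trophectoderm and primitive endoderm, Krt19 can take the place of Krt18 beside Krt8, and Krt7 marks trophoblast and glandular or ductal epithelia. Undifferentiated mESC are known to carry little of these transcripts, and single cells with abundant Krt8 and Krt18 are a familiar sign of cells that have left that state.

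Krt8 and Krt18 lie beside each other although keratins of their types otherwise sit in separate clusters. In GRCm38 (mm10) Krt8 (ENSMUSG00000049382) spans chr15:101996698-102004482 on the minus strand and Krt18 (ENSMUSG00000023043) spans chr15:102028180-102032027 on the plus strand. Their start sites face away from each other across 23697 bases that hold 0 annotated genes. Krt7 (ENSMUSG00000023039, chr15:101411043-101430313, plus strand) lies 566384 bases before Krt8, with 20 other keratin genes of the matrix between them. Krt19 (ENSMUSG00000020911, chr11:100140810-100148665, minus strand) lies in the type I cluster. Those 20 intervening keratin genes held 493 counts together, and none exceeded 0.557 counts per 1000000 UMIs (CPM; UMIs, unique molecular identifiers, count each captured molecule once) over the kept cells, so Krt7 and Krt8 are separated by genes that were barely detected.

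The stretches just before the Krt8 and Krt18 genes are shown because these neighbours move together in the values that follow. Promoter sequences came from RefSeq (GRCm38.p6), where 3 of the 4 members had an entry and Krt19 did not, and only bases outside annotated exons are printed. Distances count from the starts of these entries, which lie inside the gene spans given above. Capitals mark AGATAA, the core bound by factors of the GATA family, in Krt8 and GCCNNNGGC, an AP-2 core, in Krt18.
Krt8 (chr15:102004483-102004592, minus strand, 250 to 141 bases before the start): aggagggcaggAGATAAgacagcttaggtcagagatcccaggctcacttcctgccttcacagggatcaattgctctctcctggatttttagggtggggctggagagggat
Krt18 (chr15:102027966-102028179, plus strand, 250 to 37 bases before the start): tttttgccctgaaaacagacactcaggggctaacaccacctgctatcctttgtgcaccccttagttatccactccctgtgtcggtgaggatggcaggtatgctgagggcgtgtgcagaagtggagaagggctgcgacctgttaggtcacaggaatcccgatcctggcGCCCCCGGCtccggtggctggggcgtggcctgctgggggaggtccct
Both strands of the 250 bases before each start were searched, and 9.99% of 32851 mouse promoters hold AGATAA and 13.7% hold GCCNNNGGC in that window. The Krt7 window held 4 copies of the GC box GGGCGG, which 32.7% of promoters hold, and 2 of GCCNNNGGC. This window (chr15:101412153-101412402) lies inside the gene span of Krt7, and 205 of its 250 bases are in annotated exons. In the searched windows of Krt8 and Krt18, 140 and 36 bases are in annotated exons. The TATA box TATAAA (12.4% of promoters), the AP-1 core TGANTCA (6.75%), the TEAD core GGAATG (12.6%) and the CArG box bound by SRF (1.47%) were not found in any of the 3 windows. Such matches describe the letters of a window and not the binding of a factor.

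The matrix held 41142 barcodes, of which 31989 passed a cell filter built from the study's description, between 7464 and 8514 in each library. The study states fewer cells than this filter left, so its own set of cells was not exactly recovered. The kept cells had medians of 18378 to 21897.5 UMIs, and the shallowest had 5680. Marker transcripts of mESC were abundant in every library, with Pou5f1 at 663 to 847 CPM and Sox2 at 299.95 to 419 CPM. Srrm2 stood at 387, 533, 238 and 356 CPM in libraries 1 to 4, and these levels were not used to assign libraries. Of 31883 barcode sequences of kept cells, 105 occurred in at least 2 libraries. No doublet caller was run, and 1615 cells with more than 2 times the median UMIs of their library were left out as an alternative.

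Library 3 had the most of all 4 keratins and library 2 the least, and the members differed in how far the libraries lay apart. Because each 3′ molecule gives a single UMI whatever its length, CPM values are set side by side between genes without a length correction. Other differences in capture between genes were not measured. In libraries 1 to 4 in turn, Krt8 stood at 21.1 (20.4 to 21.8), 12.8 (12.3 to 13.3), 238 (236 to 241) and 71.7 (70.5 to 73.0) CPM. Krt18, its type I partner, stood at 18.8 (18.1 to 19.4), 14.7 (14.1 to 15.2), 233 (231 to 235) and 67.1 (65.9 to 68.3) CPM in libraries 1 to 4. The Krt8 and Krt18 levels were thus close to each other in every library, with 1.13, 0.874, 1.02 and 1.07 Krt8 UMIs per Krt18 UMI.

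Krt19 and Krt7 were lower and less spread. Krt19 stood at 5.18, 4.72, 30.5 and 22.5 CPM in libraries 1 to 4. Krt7 stood at 3.01, 1.54, 7.15 and 3.48 CPM. Set against Krt8, the Krt19 level was 0.245, 0.368, 0.128 and 0.314 times as high and the Krt7 level 0.142, 0.120, 0.0300 and 0.0485 times as high, so both were smallest relative to Krt8 in library 3, where all 4 peaked.

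**Figure D1:**
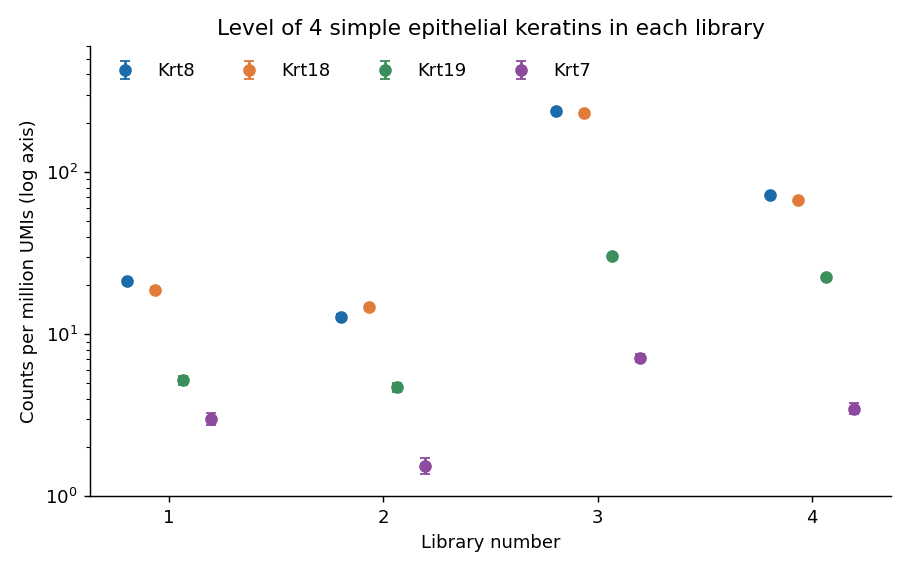
Level of each keratin over the kept cells of libraries 1 to 4, in CPM on a log axis, with exact Poisson 95 percent intervals. Krt8 and Krt18 lie together in every library, library 3 is highest for all 4 genes at 238, 233, 30.5 and 7.15 CPM, and library 2 is lowest.

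The level in library 3 over that in library 2 was 18.6-fold (17.8 to 19.3) for Krt8, 15.9-fold (15.3 to 16.5) for Krt18, 6.46-fold (6.03 to 6.93) for Krt19 and 4.64-fold (4.10 to 5.28) for Krt7. Highest over lowest library reached 4-fold in all 4 members, against 8.18% of 14525 genes with at least 200 counts, whose median was 1.52-fold. Ranked by that fold, Krt8 was at 88, Krt18 at 109, Krt19 at 494 and Krt7 at 898. The order of libraries 3, 4, 1 and 2 was the same for the 4 genes, but some neighbours lay within or close to counting error. Krt19 was 1.10-fold (1.00 to 1.21) higher in library 1 than in library 2, and Krt7 was 1.16-fold (1.02 to 1.30) higher in library 4 than in library 1. The same steps were 1.65-fold for Krt8 between libraries 1 and 2 and 3.40-fold between libraries 4 and 1. With library 3 left aside, library 4 over library 2 still gave 5.59-fold for Krt8, 4.57-fold for Krt18, 4.78-fold for Krt19 and 2.26-fold for Krt7. With 1 culture behind each library, library and culture cannot be told apart.

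These levels came from a minority of cells. At an equal depth of 5000 UMIs per cell, 2.59% of cells in library 1, 3.54% in library 2, 13.3% (12.5 to 14.0) in library 3 and 12.4% in library 4 had a Krt8 UMI. A Poisson draw with the same mean would give 7.79, 6.13, 60.2 and 27.1%, so Krt8 was seen in far fewer cells than an even spread would give, and most so in library 3. Without thinning, the shares were 7.51, 12.3, 25.1 and 31.4%. As a gauge of background, cluster 1 (below), the largest population, still had a Krt8 UMI in 1.33% of its library 1 cells and 3.73% of its library 3 cells at the same 5000 UMIs, and cluster 2, where Krt8 was lowest, in 1.58% of its cells.

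Krt18 was detected in 2.96, 5.24, 14.3 and 15.7% of cells, and Krt19 in 1.16, 1.81, 5.78 and 4.65%. The large keratin-poor cluster of each library (cluster 1 in libraries 1 and 3, cluster 2 in library 2 and cluster 4 in library 4) had Krt18 in 1.46, 2.75, 3.73 and 4.96% of its cells and Krt19 in 0.575, 1.64, 0.897 and 1.79%. The Krt19 share of library 2 lay close to that of its cluster 2, but that cluster held 79.7% of the cells of the library, so the comparison cannot separate signal from background. The Krt18 and Krt19 shares of whole libraries lay below the Poisson draw in every library, which for Krt19 was 2.11, 2.37, 11.7 and 9.89%. Krt7 differed, with 1.26, 0.775, 1.85 and 1.41% of cells against a Poisson draw of 1.39, 0.807, 2.70 and 1.69%. The same clusters had Krt7 in 1.18, 0.516, 0.414 and 0.624% of their cells. Cluster 1 held 94.3% of the cells of library 1, so the Krt7 shares of cluster and library had to be alike there. The Krt7 share lay closest to the Poisson draw in library 2 and furthest below it in library 3. At so low a level the share must lie near the draw, so this cannot show an even spread. In library 2 Krt7 stood at 1.16, 2.60 and 32.3 CPM in clusters 2, 3 and 5, the last from 15 UMIs. Of the cells with Krt7, 91.2, 97.0, 76.0 and 86.7% in libraries 1 to 4 had a single UMI of it.

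The Fano factor (variance over mean of UMIs per cell, near 1 for an even scatter) put Krt8 and Krt18 among the most unevenly distributed transcripts. It was 13.0, 6.56, 18.6 and 9.08 for Krt8 and 10.4, 5.65, 21.0 and 9.06 for Krt18 in libraries 1 to 4. Krt19 reached 3.55, 2.41, 3.71 and 4.65, and Krt7, which was too low for the ranking, 1.25, 1.11, 2.27 and 1.49. Of 8856 genes with a mean of at least 0.02 UMIs in every library, 0.361% had a Fano factor of 2 or more in every library, and Krt8, Krt18 and Krt19 were among those 32 genes. Ranked by their lowest value, Krt8 was at 3, Krt18 at 4 and Krt19 at 22. Single cells reached 66 Krt8 UMIs and 80 Krt18 UMIs out of 5000, both in library 3. In library 1, where the mean was low, 81 cells (the top 1%) held 80.4% of all Krt8 UMIs, and 19 cells held 50% of them. In library 3, by contrast, 134 cells were needed to reach 50%.

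Cells with at least 10 UMIs of Krt8 and Krt18 together were counted in each library. These are a range of a per-cell sum and not a cell type, since 98 cells held 8 or 9 UMIs and 59 held 10 or 11. Libraries 1 to 4 had 30, 15, 380 and 91 such cells, which are 0.370% (0.249 to 0.527), 0.176% (0.0986 to 0.290), 4.81% (4.35 to 5.31) and 1.22% (0.983 to 1.49) of their cells. These 516 cells, 1.61% of those kept, held 69.9% of the Krt8 and Krt18 UMIs. Library 2 stood apart in that its 15 cells held 29.0% of them, while cells with 1 or 2 UMIs held 59.6%. In library 3 the cells above the limit held 82.5%, and 96 of them reached 40 UMIs or more.

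**Figure D2:**
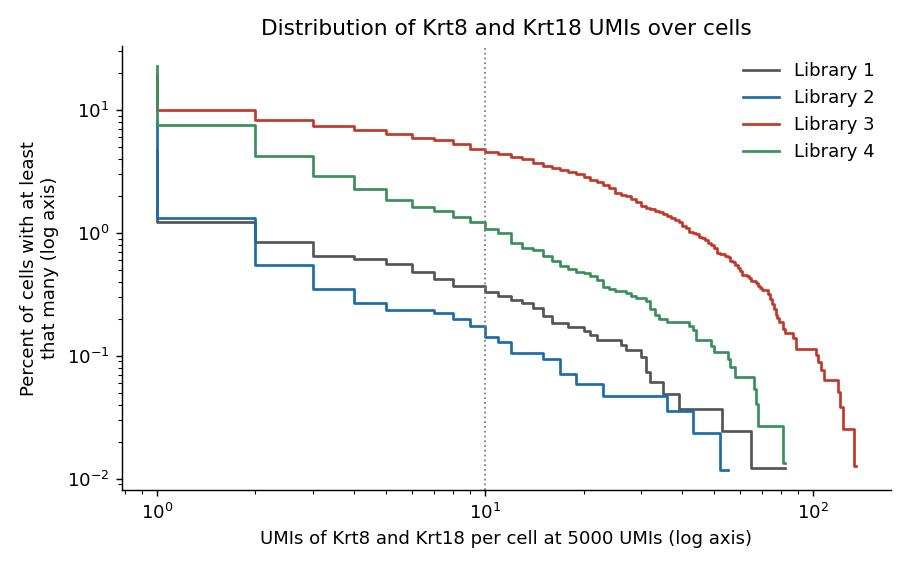
Percent of cells with at least a given number of Krt8 and Krt18 UMIs at 5000 UMIs per cell, with 1 line per library and log scales on both axes. The dotted line marks 10 UMIs, which 0.370, 0.176, 4.81 and 1.22% of cells reached in libraries 1 to 4.

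Within these 516 cells Krt8 and Krt18 transcripts were close to even. Krt18 made up a median of 47.6% of the Krt8 and Krt18 sum, with quartiles of 38.5 and 56.6%. Of 582 cells with at least 5 Krt8 UMIs, 20 had none of Krt18, and of 501 cells with at least 5 Krt18 UMIs, 7 had none of Krt8. Krt19 was present in 342 (66.3%) of the 516 cells, from 46.7% in library 2 to 90.1% in library 4. Krt7 was present in 121 (23.4%), from 6.67% in library 1 to 29.7% in library 4.

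Transcripts of the partner chains climbed with the Krt8 count of a cell. Cells with 0, 1, 2 to 4 and at least 5 Krt8 UMIs held on average 0.0235, 0.153, 1.61 and 9.31 Krt18 UMIs in library 1 and 0.0860, 0.392, 2.72 and 13.6 in library 3. The same classes held 0.0505, 0.165, 0.794 and 8.78 in library 2 and 0.133, 0.421, 1.39 and 9.29 in library 4. Krt18 therefore stepped up at every class in every library. Krt19 went from 0.00746, 0.0167, 0.0190 and 0.0254 UMIs in cells without Krt8 to 2.29, 2.39, 1.63 and 3.88 in cells with at least 5 Krt8 UMIs in libraries 1 to 4. In that top class 87.6% of library 4 cells held Krt19, against 55.6 to 60% in the other libraries.

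Krt7 was higher in the top Krt8 class in libraries 2 to 4, and library 1 had too few UMIs to tell. Cells without Krt8 and cells with at least 5 Krt8 UMIs held 0.00743 and 0.278 (0.0902 to 0.648) UMIs in library 2, 0.00628 and 0.373 (0.317 to 0.435) in library 3, and 0.0103 and 0.457 (0.337 to 0.606) in library 4. In library 1 they held 0.0132 (0.0107 to 0.0159) and 0.0571 (0.00692 to 0.206), the latter from 2 UMIs in 35 cells, and this interval overlaps that of library 2. Cells with any Krt8 UMI over those without gave 3.62-fold more Krt7 in library 1, 3.58 in library 2, 26.3 in library 3 and 6.31 in library 4. For Krt18 the same split gave 82.6 (69.3 to 98.8), 14.9 (12.6 to 17.5), 71.7 (65.9 to 78.2) and 12.1-fold (11.2 to 13.2) in libraries 1 to 4. Every cell counts at the same depth here, but the genes of a cell share its library, its capture and its reverse transcription.

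**Figure D3:**
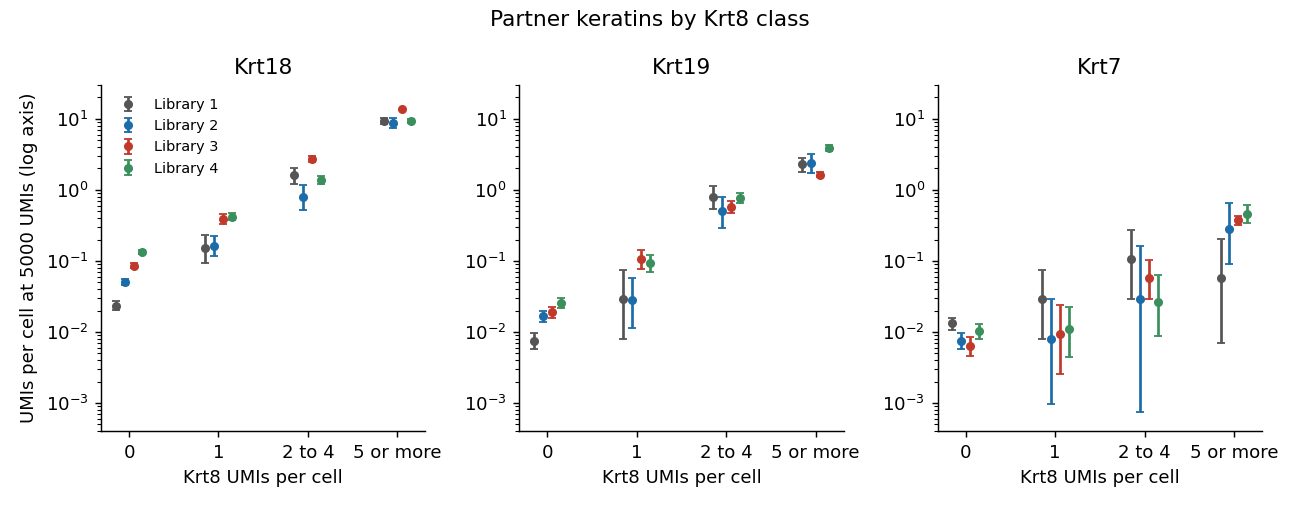
Mean UMIs per cell of Krt18, Krt19 and Krt7 at 5000 UMIs per cell, in classes of cells by their Krt8 count, on a log axis with exact Poisson 95 percent intervals. Intervals of neighbouring classes overlap for Krt7 between 0 and 1 Krt8 UMIs in all 4 libraries, between the next classes in libraries 1, 2 and 4 and between the top classes in libraries 1 and 2, and for Krt19 between 0 and 1 Krt8 UMIs in libraries 1 and 2. In the top class Krt18 reached 8.78 to 13.6 UMIs in the 4 libraries, Krt19 1.63 to 3.88 and Krt7 0.0571 to 0.457.

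Co-detection at 5000 UMIs compares the cells that held both genes with the number expected if each gene were spread independently. Krt8 and Krt18 were found together in 72 cells of library 1 against 6.21 expected, in 63 against 15.8 in library 2, in 663 against 149.6 in library 3 and in 398 against 146 in library 4. The ratios were 11.6 (9.08 to 14.6), 4.00 (3.07 to 5.11), 4.43 (4.11 to 4.77) and 2.73 (2.48 to 3.01). Intervals of co-detection ratios cover the count of cells with both genes and take the share of each gene as known. A ratio has a ceiling set by how common the genes are, and it was largest in library 1, where Krt8 was detected in the fewest cells.

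Krt19 was also found with Krt8 more often than expected, with ratios of 15.6 (11.1 to 21.4), 3.86 (2.39 to 5.89), 5.73 (5.15 to 6.35) and 4.47 (3.87 to 5.14) in libraries 1 to 4. In libraries 3 and 4 these lay above the Krt8 and Krt18 ratios without overlap of the intervals, but Krt19 is rarer and its ceiling is higher. Both ratios also rest on the same Krt8 cells, and their intervals leave out the error of the shares. Krt18 with Krt19, which are both type I chains and do not pair with each other, gave 13.7, 3.10, 5.37 and 3.40. Krt8 with Krt7, both type II, gave 3.03 (1.31 to 5.97), 2.57 (0.944 to 5.59), 5.43 and 2.91. The ratios thus did not separate pairs of opposite type from pairs of the same type. For Krt18 with Krt7 the interval reached below 1 in library 1 (1.99, 0.730 to 4.33), and for Krt19 with Krt7 it did so in library 2 (2.51, 0.518 to 7.34). Among cells with Krt7, 71.9% also had Krt8 in library 3 but 7.84% did in library 1. Of 10115 genes seen in at least 1% of cells of every library, 2.16% had a ratio with Krt8 of 1.5 or more in every library. Krt19 ranked 3 and Krt18 10 by their lowest ratio, behind Anxa3, a calcium-dependent membrane binding protein, at 5.28 and Phlda1 at 4.43. Dsp, the desmoplakin that anchors keratin filaments to desmosomes, had a lowest ratio of 2.78.

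**Figure D4:**
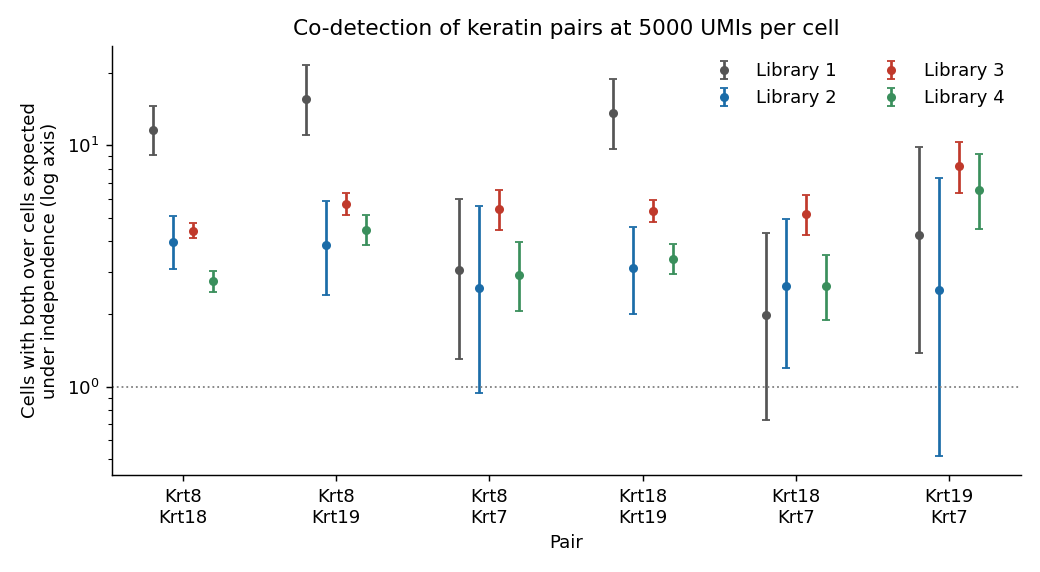
Cells holding both keratins of a pair over the number expected under independence, at 5000 UMIs per cell, for the 6 pairs in libraries 1 to 4, on a log axis. The 95 percent intervals are exact for the count of cells with both genes and take the expected number as known. The dotted line marks 1. Krt8 with Krt18 lies between 2.73 and 11.6, and 3 intervals of pairs with Krt7 reach below 1.

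To place the keratins among the cell populations, the kept cells were clustered with the 13 keratin genes among the 2000 most variable genes left out. Before that exclusion Krt18 ranked 2, Krt8 4, Krt19 11 and Krt7 50 in variability. Of 7 clusters, cluster 1 (13461 cells, led by Slc11a1) came from libraries 1 and 3, cluster 2 (6957 cells, led by Spic) from library 2, cluster 3 (5287 cells, led by Spon1 and Fgf5) from libraries 2 and 4 and cluster 4 (3553 cells, led by Gm45752 and Plac8) from library 4. Cluster 5 (2591 cells) was led by Gzme, Ctla2a, the smooth muscle actin gene Acta2 and the collagen gene Col1a2. Nearly all cells of cluster 2 were from library 2 and of cluster 4 from library 4, so there a cluster and its library cannot be told apart.

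Although no keratin was used to form it, cluster 5 held 79.4% of all Krt8 UMIs, 79.8% of Krt18, 60.8% of Krt19 and 51.2% of Krt7. It had 444 cells in library 1, 20 in library 2, 2054 in library 3 and 73 in library 4. In those cells Krt8 stood at 245, 1329, 725 and 1914 CPM. Krt18 stood at 212, 1410, 707 and 2009 CPM, Krt19 at 54.9, 159, 91.2 and 467 CPM and Krt7 at 4.77, 32.3, 20.1 and 89.6 CPM. The few cluster 5 cells of libraries 2 and 4 were thus richer in Krt8, Krt18 and Krt19 than the many of libraries 1 and 3, while the Krt7 interval of library 2 (18.1 to 53.3 CPM) overlapped that of library 3 (18.95 to 21.3 CPM). Even so, cells with at least 10 UMIs of Krt8 and Krt18 were a minority of cluster 5 in 3 libraries, at 6.76, 45 and 18.5% in libraries 1 to 3, and 54.8% in library 4.

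Outside cluster 5 the keratins ranked the libraries differently. Krt8 there stood at 2.85, 9.77, 7.87 and 52.0 CPM in libraries 1 to 4, and Krt18 at 2.98, 11.4, 8.43 and 46.3 CPM. Krt19 stood at 1.13, 4.36, 1.72 and 17.8 CPM, and Krt7 at 2.87, 1.47, 1.01 and 2.56 CPM. Library 3 over library 2 without cluster 5, an alternative added after seeing the data, was 0.806-fold for Krt8, 0.738-fold for Krt18, 0.394-fold for Krt19 and 0.687-fold for Krt7, so the direction turned in all 4. The high level of library 3 was carried by its 2054 cluster 5 cells.

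In library 4 most Krt8 transcripts lay in cluster 3 instead. That cluster held 67.2% of the Krt8 UMIs of library 4 and 56.7% of those of library 2. Its Krt8 level was 35.4 CPM in library 2 and 95.2 CPM in library 4, a 2.69-fold difference. Krt18 differed 2.25-fold, Krt19 3.50-fold and Krt7 1.34-fold between the same cells. By comparison Krt8 was at 3.08 CPM in cluster 2 of library 2 and at 6.74 CPM in cluster 4 of library 4, so within each of these libraries the cluster led by Spon1 and Fgf5 was the richer of the 2 large clusters. Inside cluster 3 the listed formative genes, Fgf5 among them, summed to 2313 and 2169 CPM in cells without Krt8 and Krt18 UMIs in libraries 2 and 4. In its cells with at least 10 such UMIs, 6 and 50 in number, they summed to 961 and 806 CPM.

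Within a cluster the libraries still differed. In cluster 5, library 3 over library 1 was 2.96-fold (2.85 to 3.07) for Krt8, 3.33-fold for Krt18, 1.66-fold for Krt19 and 4.22-fold for Krt7. In cluster 1 the same contrast was 2.45-fold for Krt8, 2.48-fold for Krt18 and 1.33-fold for Krt19, but 0.341-fold (0.274 to 0.422) for Krt7. Krt7 was thus the only member to go the other way between the same libraries in cluster 1, with 2.77 and 0.946 CPM in libraries 1 and 3.

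**Figure D5:**
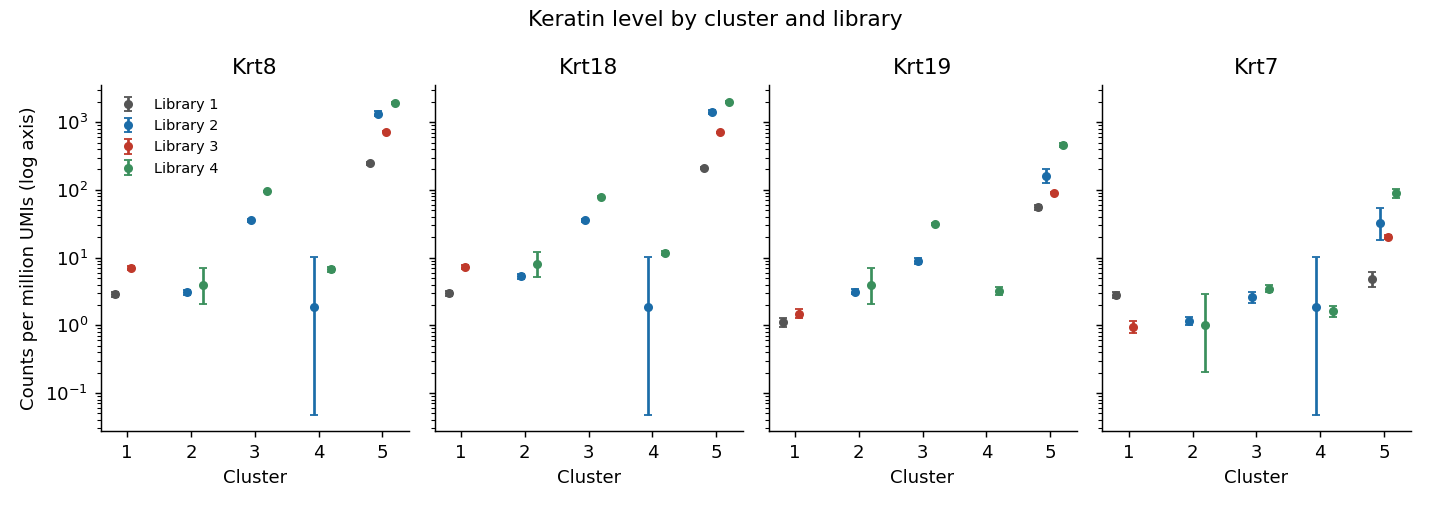
Level of each keratin in clusters 1 to 5 of each library, in CPM on a log axis with exact Poisson 95 percent intervals, for clusters with at least 20 cells in a library and at least 1 count. Cluster 5 is highest for all 4 genes in each library drawn, with Krt8 at 245 to 1914 CPM, and cluster 3 comes next in libraries 2 and 4.

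Krt7 was spread over the clusters unlike Krt8 in library 1. There 85.1% of its UMIs were in cluster 1 and 11.95% in cluster 5, while cluster 5 held 87.5% of Krt8. Cluster 5 held 4.87% of the Krt7 UMIs of library 2, 90.4% in library 3 and 27.3% in library 4. Per Krt8 UMI, Krt7 stood at 0.0194 (0.0148 to 0.0251) in cluster 5 of library 1 and at 1.00 (0.878 to 1.15) in its other cells. Across the same divide Krt18 per Krt8 UMI stood at 0.866 and 1.05, and Krt19 at 0.224 (0.206 to 0.243) and 0.395 (0.330 to 0.472). Krt7 per Krt8 UMI inside and outside cluster 5 was 0.0243 and 0.150 in library 2, 0.0277 and 0.128 in library 3, and 0.0468 and 0.0491 in library 4. The 7 cells of cluster 6 in library 1 (led by Aqp3 and Bhlhe41) carried 14 Krt7 UMIs, or 189 (103 to 317) CPM. In libraries 2 to 4 this cluster had 17, 13 and 51 cells, with Krt7 at 4.64, 46.9 and 1.53 CPM from 1, 6 and 1 UMIs.

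Co-detection of Krt8 and Krt18 was then taken inside single clusters. In cluster 5 the ratio was 2.30 (1.83 to 2.84) in library 1 and 1.77 (1.66 to 1.89) in library 3. In cluster 3 it was 1.83 (1.36 to 2.42) in library 2 and 1.70 (1.52 to 1.88) in library 4, and in cluster 4 of library 4 it was 2.99 (1.68 to 4.93). In cluster 1 it was 0.670 (0.0170 to 3.73) in library 1, with 1 cell holding both against 1.49 expected, and 1.74 (0.951 to 2.91) in library 3. The cluster 1 ratio of library 3 was thus similar in size to those of clusters 5 and 3, with 14 cells holding both against 8.05 expected, and both cluster 1 intervals include 1. In cluster 2 of library 2 it was 1.67 (0.541 to 3.88). Over all cells outside cluster 5 the ratio was 0.666 (0.0169 to 3.71), 3.63 (2.72 to 4.74), 1.92 (1.10 to 3.12) and 2.63 (2.36 to 2.92) in libraries 1 to 4.

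Cells rich in Krt8 and Krt18 fell into different clusters in different libraries. All 30 of library 1 and 379 of the 380 of library 3 lay in cluster 5. In library 2, 9 lay in cluster 5 and 6 in cluster 3, and in library 4, 40 lay in cluster 5 and 50 in cluster 3. The library 4 cells of both clusters carried much Krt19, at 713 (662 to 765.5) CPM in cluster 5 and 848 (799 to 899) CPM in cluster 3. Krt7 was higher in those of cluster 5, at 146 (124 to 171) against 43.1 (32.7 to 55.9) CPM. The intervals overlapped for the smooth muscle gene Tagln, at 2457 (2363 to 2554) and 2518 (2433 to 2605) CPM, and the epithelial adhesion gene Epcam at 512 (470 to 557) and 538 (499 to 579) CPM, whereas Acta2 was 529 (486 to 575) against 38.6 (28.7 to 50.8) CPM and Vim, the mesenchymal intermediate filament, 680 (631 to 732) against 296 (267 to 327) CPM. Primitive endoderm markers summed to 57.2 CPM in the cells of cluster 5 and 4.54 CPM, from 6 UMIs, in those of cluster 3, and Pou5f1 stood at 205 and 545 CPM. Other lineage lists were not as low in these cluster 3 cells, with trophectoderm at 60.5, surface ectoderm at 35.6 and fibroblast markers at 19.7 CPM.

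Genes that accompanied Krt8 were sought by comparing cells with a Krt8 UMI at 5000 UMIs with cells without, in CPM from full counts. In all 4 libraries alike, 187 of the 11098 genes examined (1.68%) reached 2-fold higher levels in cells with Krt8, and 23 (0.207%) reached 2-fold lower levels. Both counts depended on the settings. The higher genes numbered 505 for a class of at least 2 Krt8 UMIs, 350 with a minimum of 50 counts and 1 without cluster 5, and the lower genes 2 when classes were set at 10000 UMIs, 12 without deep cells, 368 for a class of at least 2 Krt8 UMIs and 46 with a minimum of 50 counts. Cells are not replicates, so these are counts past a fold and not tests. The minimum of 200 counts in each library held for both classes together, so a gene could enter through the class in which it was high. Krt7 did so in library 3, with 186 UMIs in cells without Krt8 and 1046 in cells with it. Genes not named here did so too, and how many of the 187 entered in this way was not counted. The classes were set on Krt8, and the genes of a cell share its library and its cluster.

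Actin cytoskeleton and SRF target genes were the list in which most members passed. Of 16 listed genes 14 could be examined and 9 reached 2-fold throughout (Acta2, Tagln, Cnn1, Myl9, Tpm1, Actg1, Zyx, Ccn1 and Ccn2). The median over the list of the lowest fold was 2.52, against 0.917 over all genes. Tagln, an actin cross-linker of smooth muscle, went from 3.09, 8.19, 48.4 and 34.6 CPM in cells without Krt8 to 564, 205, 1607 and 596 CPM in cells with it. Acta2 went from 0.12, 1.97, 18.4 and 4.82 to 131, 28.8, 667 and 70.6 CPM, with 19 UMIs behind the lowest value. The minimum of 200 counts held for both classes together, and in library 1 Acta2 and Cnn1, with 19 and 99 UMIs in cells without Krt8, met it only with the class in which they were high. Ccn1, a secreted matricellular protein, was 7.30 to 47.9-fold higher and Tpm1, a tropomyosin, 2.80 to 9.15-fold.

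Partners of keratins in filaments and junctions moved in part. Of 8 keratin linkers, 6 were examined and Dsp alone passed, from 4.60, 5.41, 4.21 and 5.76 CPM to 31.9, 31.8, 51.5 and 54.4 CPM. Among other intermediate filament genes 1 of 7 passed, Nes, which encodes nestin and went from 6.45, 20.6, 21.0 and 50.5 to 106, 110, 140 and 191 CPM. Vim ranged from 1.03 to 6.82-fold and did not pass in every library, and neither did the nuclear lamin gene Lmna at 1.68 to 3.895-fold. Of 8 epithelial junction genes, the tight junction genes Cldn7 (2.07 to 5.53-fold) and Ocln (2.38 to 4.96-fold) passed. In library 1 Ocln had 194 UMIs in cells without Krt8 and 32 in cells with it. Like Acta2 and Cnn1, Ocln met the minimum of counts there only with the class in which it was high. The median lowest fold was 1.43 for linkers, 1.11 for other intermediate filaments and 1.37 for junction genes.

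Among 12 listed regulators of keratin genes 10 were examined and 2 passed, Klf6 at 2.54 to 3.41-fold and the AP-1 gene Jun at 3.57 to 10.6-fold. Tfap2c, an AP-2 factor of trophectoderm, lay at 0.42 to 0.51-fold, above the lower limit in at least 1 library. In the naive pluripotency panel 2 of 10 genes passed as lower, the nuclear receptor gene Nr5a2 at 0.32 to 0.47-fold and Prdm14 at 0.25 to 0.44-fold, and the median of the lowest fold was 0.336, a value that leans low because it takes the lowest of 4 libraries. Klf4 went from 169, 107, 120 and 53.3 CPM to 89.6, 53.5, 43.4 and 18.1 CPM and narrowly missed the limit in library 1. None of the 8 examined formative genes passed in either direction, with a median lowest fold of 0.763.

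With cluster 5 left out, an alternative added after seeing the data, 1 gene of 10649 passed as higher with Krt8 and 0 as lower. That gene was Anxa3, at 2.30, 8.69, 2.99 and 16.5-fold. Krt18 there was 0.626-fold in library 1 and 6.49, 5.25 and 6.58-fold in libraries 2 to 4, Krt19 was 2.11, 12.1, 4.49 and 22.5-fold, Krt7 was 1.65, 2.01, 1.86 and 2.94-fold, and Tagln was 0.735-fold in library 1 and 23.1, 5.95 and 13.6-fold in libraries 2 to 4. Krt19, Krt7 and Tagln were below the minimum of counts there and were not examined. The library 1 folds rest on 5 Krt19, 4 Krt18, 10 Krt7 and 1 Tagln UMIs in cells with Krt8, and that of Anxa3 on 8.

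Across cells, the 10 genes whose lowest within-library correlation with Krt8 was highest, among 8855, were Tagln, Krt18, Cald1, Krt19, Nes, Tpm1, Actg1, Serpinh1, Sfn and S100a6. Pearson r of log UMIs at equal depth ranged over the 4 libraries from 0.43 to 0.75 for Tagln, 0.37 to 0.88 for Krt18, 0.29 to 0.72 for Cald1, the actin-binding caldesmon gene, and 0.27 to 0.63 for Krt19. Cells were 7464 to 8514 in each library and shared its preparation. Tagln had a higher lowest value than Krt18, a type I partner of Krt8. Krt7, too low for the ranking, had r of 0.04, 0.08, 0.40 and 0.26. At the other end, the 10 genes whose highest r over the libraries was lowest began with Dppa5a, which ranged from -0.55 to -0.22, Ifitm1 from -0.26 to -0.16, Tdh from -0.34 to -0.15, Zfp42 from -0.33 to -0.14, Klf2 from -0.34 to -0.14, Chchd10 from -0.48 to -0.13 and Sox2 from -0.27 to -0.11, and Ifitm2, Rbmxl2 and Stmn1 complete these 10.

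The cells richest in Krt8 and Krt18 were then described by whole marker lists. Between cells with no UMI of either gene and cells with at least 10, the summed mESC markers went from 7986, 6116, 7035 and 5051 CPM to 1573, 1537, 1605 and 1492 CPM in libraries 1 to 4. Pou5f1 itself went from 851, 793, 710 and 779 to 442, 330, 270 and 398 CPM, so it was lower but still present. The naive panel went from 1970, 1628, 1586 and 1066 to 342, 366, 427 and 383 CPM. Formative genes went from 755, 1157, 898 and 1564 to 712, 790, 594 and 688 CPM, and actin and SRF targets from 3460, 4101, 4247 and 4916 to 18326, 20575, 22155 and 19402 CPM. Across the 4 libraries the keratin-rich cells thus resembled each other in these sums more than the keratin-free cells did in mESC, naive and formative markers. Most of the mESC sum was 1 gene, Dppa5a, at 5237, 3470, 4505 and 2594 CPM in cells without a Krt8 UMI. The spread of the mESC sum among keratin-free cells was therefore largely that of Dppa5a.

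Several embryonic lineages express these keratins, so their markers are given as whole lists, without a reference level for cells of those lineages. All 4 lists were higher in the richest cells of every library except surface ectoderm in library 1, and its rise in library 2 rested on the keratin gene Krt14. Trophectoderm markers summed to 5.85, 8.04, 7.16 and 9.19 CPM in cells without Krt8 and Krt18 and to 20.7, 54.1, 39.9 and 83.9 CPM in the richest cells. Of 10 such markers 6, 4, 2 and 2 were at 0 in the richest cells, among them Tpbpa, which had no count in any kept cell, and Elf5, which was at most 0.0517 CPM in any whole library, so that their zeros say nothing of the richest cells. Cdx2, the trophectoderm master regulator, stood at 0, 2.57, 1.06 and 9.14 CPM, and Gata3, which is active in trophectoderm and in other lineages, at 12.6, 28.3, 17.98 and 30.3 CPM. Primitive endoderm markers went from 2.39, 2.81, 3.66 and 5.21 to 10.3, 64.4, 23.2 and 27.4 CPM, with 8, 3, 1 and 2 of 10 at 0. Gata4 stood at 0, 2.57, 0.71 and 1.25 CPM, Sox17 at 0, 0, 5.40 and 6.65 CPM and Gata6 at 1.15, 12.9, 3.19 and 6.65 CPM, against 0.203, 0.0706, 0.172 and 0.120 CPM of Gata6 in cells without Krt8 and Krt18. In the richest cells 2 UMIs make 2.29 CPM in library 1 and 1 UMI makes 2.57 CPM in library 2. The Gata4 and Gata6 values of these libraries thus rest on very few UMIs. These genes are also only part of the list sum. Another listed gene, Dab2, had 16, 23, 298 and 114 UMIs in cells with a Krt8 UMI, against 1, 6, 63 and 32 of Gata6. A count of 0 has an exact upper limit of 4.23 CPM in the 30 cells of library 1 and 9.50 CPM in the 15 of library 2.

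Surface ectoderm markers went from 11.5, 7.15, 7.66 and 4.88 to 5.74, 33.5, 18.4 and 49.8 CPM, and fibroblast markers from 5.10, 8.17, 10.2 and 10.7 to 83.75, 64.4, 88.1 and 39.04 CPM. The surface ectoderm list itself holds keratins. Of its sum in the richest cells, Krt14 gave 28.3 CPM in library 2, from 11 UMIs, and 34.1 CPM in library 4. The cells were given no lineage name. The part of other lineages in the keratin levels was not tested.

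The richest cells also differed in quality measures. Their median UMIs were 24635.5, 22482, 25744.5 and 22756 in libraries 1 to 4, against 18292.5, 21895, 19026 and 21341 in cells without Krt8 and Krt18 at equal depth, and their median mitochondrial share was 3.57, 2.88, 3.11 and 2.83% against 5.43, 4.13, 4.64 and 3.61%. Of the richest cells 9, 1, 94 and 11 exceeded 2 times the median UMIs of their library. The part of depth or of doublets in the keratin values was not tested. Srrm2 went from 387 to 391, 532 to 481, 238 to 230 and 354 to 303 CPM between cells with none and the richest, so it was lower in the richest cells of libraries 2 to 4. Between the same classes inside cluster 3, Srrm2 went from 375 (369 to 380) to 310 (281 to 342) CPM in library 4. In library 2 it was 594 (585 to 602) and 630 (515 to 765) CPM there, with overlapping intervals.

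The weight of the other keratins differed between libraries. The 4 members summed to 48.1, 33.8, 509 and 165 CPM in libraries 1 to 4 and the other 45 keratin genes to 53.9, 78.6, 34.6 and 44.4 CPM, so that the members made up 47.1, 30.05, 93.6 and 78.8% of keratin UMIs. Of the 45 genes 6 had no UMI, and Krt42, Krt10 and Krt17, all type I genes of chromosome 11, reached 1 CPM in at least 1 library. Krt42 stood at 40.8, 50.8, 20.7 and 22.9 CPM, above Krt8 and Krt18 in libraries 1 and 2. It was lower in the cells richest in Krt8 and Krt18 of every library, at 41.5, 52.5, 24.0 and 26.9 CPM in cells with none of them and 2.29, 0, 3.01 and 2.08 CPM in the richest, from 2, 0, 34 and 5 UMIs. The Krt10 intervals of both classes overlapped in every library. Krt17 went from 4.00, 14.2, 2.18 and 6.26 CPM to 10.3, 2.57, 6.82 and 49.0 CPM, the value of library 2 resting on 1 UMI. Krt14, of basal epithelia, reached 28.3 CPM in the richest cells of library 2 and 34.1 CPM in those of library 4, against 0 and 2.21 CPM in libraries 1 and 3. Krt20, of intestinal epithelia, reached 4.59, 7.72, 8.77 and 3.32 CPM in them, from 4, 3, 99 and 8 UMIs. Reads of near-identical copies could blur such levels, and a Krt8 pseudogene on chromosome 7 is annotated but is no row of the matrix. Transcripts on the opposite strand were negligible, with 18 UMIs of Gm36026 across Krt8 and 1 of Gm671 across Krt7.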

How the data were processed

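Per the labels and the study's methods, the authors counted UMIs from droplet 3′ libraries (Chromium v3) with Cell Ranger 6.1.2 against mm10, and joined 4 libraries into the deposited matrix of UMI counts, a step that evens out read depth between libraries. From these deposited counts, cells were kept as the study describes, with UMIs and genes no more than 1 SD below the mean of their library and at most 10 percent mitochondrial UMIs. CPM was summed over kept cells without further normalisation. For shares, Fano factors and co-detection each cell was thinned without replacement to 5000 UMIs (seed 11), which no kept cell fell below. Clustering used 1987 variable genes, 20 principal components, 20 neighbours and Leiden resolution 0.2. Software was Python 3.11.15, numpy 2.4.6, scipy 1.17.1, scikit-learn 1.9.0, leidenalg 0.10.2 and R 4.3.3. Calls by fold were tested on simulated cells without clusters, in which only abundant genes were changed, by more than the limit for a call. That check does not cover rare genes or folds near the limit. Class contrasts required 200 counts over both classes in every library, and library ranges took a floor of 3 counts. Named genes were the members, the 10 most and least correlated with Krt8, and the genes of fixed lists, other keratins included. Anxa3, Phlda1 and the genes leading clusters were named after their values were seen. The members and lists were chosen with earlier results of these data known. No library was tied to a labelled sample, so no test between genotypes was made. Alternatives covered thinning depth, a second draw, gene minimums, normalisation, deep cells, clustering settings and each library left out.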

Additional observations from a re-analysis of the deposited data

Results flagged for a closer look

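Keratin transcripts were also present in the barcodes that the cell filter removed, which no comparison above used. There were 1417, 3222, 1804 and 2710 such barcodes in libraries 1 to 4, and 3 counts over them correspond to 0.592, 0.266, 0.466 and 0.373 CPM. Krt8 stood at 53.3, 6.83, 72.5 and 29.0 CPM and Krt18 at 53.7, 8.07, 68.8 and 30.3 CPM in them. In library 1 these Krt8 and Krt18 levels lay above those of the kept cells (21.1 and 18.8 CPM), and in libraries 2, 3 and 4 they lay below. Krt19 stood at 5.13, 3.72, 12.9 and 7.34 CPM and Krt7 at 2.96, 1.24, 3.11 and 1.74 CPM, with intervals that included the level of the kept cells in libraries 1 and 2 and lay below it in libraries 3 and 4. All 16 values lay above their limit.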

How the results depend on the processing

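No paired analysis was possible because no library number is tied to a labelled replicate and no result comes from a test. Of 66 alternatives, 5 turned a direction, and 26 stayed within the counting interval of the value or, for counts of cells or genes, within 1.5 times it. The other 35 left these limits, some by little since a few have no interval or a narrow one. Library 3 over library 2 for Krt8, Krt18, Krt19 and Krt7 was 15.1, 12.5, 5.16 and 3.56-fold as a mean of each cell's share, 14.2, 11.5, 5.20 and 3.20-fold without cells above 2 times the median UMIs, 5.37, 3.79, 2.55 and 1.18-fold without the cells of at least 10 Krt8 and Krt18 UMIs, and 0.806, 0.738, 0.394 and 0.687-fold without cluster 5, the last 2 settings chosen after seeing the data. All barcodes or median-of-ratios size factors moved none of these 4. With a minimum of 1000 counts, 518 genes ranged 4-fold. The share of cells with Krt8 was 19.3% at 10000 UMIs and 11.96% without deep cells, with library 4 then highest in both. The lowest Fano factor of Krt8 was 11.1 at 10000 UMIs, 6.52 without deep cells and 6.64 in a second draw. The lowest co-detection of Krt8 and Krt18 was 1.97 at 10000 UMIs and 0.666 within all clusters but cluster 5, which rests on 1 cell of library 1. The lowest Krt18 fold was 9.32 at 10000 UMIs and 26.6 for a class of at least 2 Krt8 UMIs. Genes higher with Krt8 (187) numbered 505 for that class, of which 185 were shared, 350 with a minimum of 50 counts and 1 without cluster 5. Genes lower (23) numbered 2 at 10000 UMIs, 12 without deep cells, 368 for that class, 46 with a minimum of 50 counts and 0 without cluster 5. Leaving out 1 library gave 192 to 282 higher genes and 27 to 68 lower genes, and passing in fewer libraries is easier by construction: without library 2 there were 282 and 68, and without library 1 46 lower. The share of Krt8 and Krt18 in cluster 5, 79.6%, was 80.0% at resolution 0.1, 80.4% with keratins open to selection and 80.4% with 10 components. Co-detection with Krt7 was not taken at another depth, and the cause of each shift was not tested beyond these settings.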
